A study of Homo sapiens with 9 samples.

Results

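PTPRN2, CAMTA1, SHANK2 and CDH4 were the 4 of 20136 protein-coding genes with the largest H3K9me3 difference, mdig knockout (KO) minus WT. The difference was counted in bases of the gene body under islands. The 4 genes were chosen by it, so their H3K9me3 values are given as a description and were not tested. PTPRN2 encodes a receptor-type phosphatase-like protein of dense-core secretory granules, CAMTA1 a calmodulin-binding transcription activator, SHANK2 a scaffold of the postsynaptic density, and CDH4 (R-cadherin) a classical cadherin of cell-cell adhesion. The cells were BEAS-2B, a virus-immortalized human line from bronchial epithelium, grown with Blasticidin after transfection with a CRISPR-Cas9 vector against mdig (mina53, RIOX2), a JmjC domain protein. Colonies that kept mdig protein served as WT and colonies that lost it as KO, so both had passed through the same vector and selection. ChIP-seq was done for H3K9me3, H3K27me3, H3K4me3 and H3R8me2a with 1 library per mark and genotype, plus 1 input of WT, 9 libraries in all. No WT-KO difference here has a replicate, so none carries an error or a p-value. Each library was deposited as islands, stretches of enriched 200 bp windows given by start and end with no height, and the depth behind an island is unknown.

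H3K9me3 is the mark of constitutive heterochromatin, read by HP1 proteins and common over repeats and zinc finger gene clusters. H3K27me3 is laid down by Polycomb repressive complex 2 over silent developmental and tissue-specific genes, where it can form domains that span whole genes. H3K4me3 marks the starts of genes in active or poised chromatin, and H3R8me2a is asymmetric dimethylation of an arginine next to lysine 9. The 4 genes are best known from nervous and endocrine tissue.

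In total, H3K9me3 islands spanned 52.8 Mb (WT) and 195 Mb (KO), a ratio of 3.69, H3K27me3 256 and 342 Mb (1.33), H3K4me3 88.8 and 102 Mb (1.15), and H3R8me2a 62.3 and 100 Mb (1.61). The start of RIOX2 kept an H3K4me3 island, which took up 2.70 kb (WT) and 2.90 kb (KO) of the 2 kb on both sides, which does not check the edit because islands hold no read sequence. Of 5 epithelial genes looked up after the values were seen, KRT8, KRT18, CDH1 and EPCAM had H3K4me3 at their starts in both genotypes and KRT19 had none in either. The CDH1 start also held 2.20 kb (WT) and 4.00 kb (KO) of H3K27me3. At the KRT19 start, H3K9me3 went from 0 to 3.64 kb.

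The 4 genes lie on 4 chromosomes (hg19, the same sequence as GRCh37). PTPRN2 (ENSG00000155093.20) spans 1049 kb on the minus strand at chr7:157331750-158380515 and lies 0.758 Mb from the end of the long arm. CAMTA1 (ENSG00000171735.21) spans 984.3 kb on the plus strand at chr1:6845514-7829766. SHANK2 (ENSG00000162105.21) spans 649.7 kb on the minus strand at chr11:70313959-70963623, and CDH4 (ENSG00000179242.16) 688.4 kb on the plus strand at chr20:59827317-60515673. Their canonical transcripts have 23, 23, 24 and 16 exons, in that order, and exons of any transcript make up 4.86, 15.7, 18.7 and 7.51 kb, so almost all of each body is intron.

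The 200 bases before the annotated starts of PTPRN2 and CAMTA1 are shown because the marks there differed. They are read from GRCh37 along the gene's strand, with every CG dinucleotide in capitals.
PTPRN2 (chr7:158380516-158380715, minus): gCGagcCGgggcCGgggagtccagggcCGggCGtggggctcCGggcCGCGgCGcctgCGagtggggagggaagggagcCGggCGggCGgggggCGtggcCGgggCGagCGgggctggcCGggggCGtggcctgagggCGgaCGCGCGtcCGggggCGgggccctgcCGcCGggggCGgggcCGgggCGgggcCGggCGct
CAMTA1 (chr1:6845314-6845513, plus): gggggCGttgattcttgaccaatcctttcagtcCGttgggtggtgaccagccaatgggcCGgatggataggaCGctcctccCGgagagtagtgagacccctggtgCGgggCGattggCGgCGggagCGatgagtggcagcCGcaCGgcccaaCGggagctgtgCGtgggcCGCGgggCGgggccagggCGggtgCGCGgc
Both windows were rich in CG, with 32 and 20 CG dinucleotides and a GC content of 88.5 and 70%, in the order shown. Neither overlapped an H3K9me3 island in WT or KO. An H3K4me3 island overlapped the CAMTA1 window in both genotypes and the PTPRN2 window in neither, and H3K27me3 overlapped the PTPRN2 window in WT alone and the CAMTA1 window in neither.

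H3K9me3 lay in short, scattered islands in WT and over most of the gene body in KO. In PTPRN2, 40 WT islands covered 177 kb and 75 KO islands 716 kb, or 16.9% and 68.2% of the body. In CAMTA1, 5 WT islands covered 25.8 kb and 42 KO islands 500 kb (2.62% and 50.8%). In SHANK2, 15 WT islands covered 82.6 kb and 30 KO islands 531 kb (12.7% and 81.8%), and in CDH4 14 WT islands covered 87.0 kb and 41 KO islands 490 kb (12.6% and 71.3%). CAMTA1 had the smallest share in both genotypes and the largest ratio of the 4, 19.4 times, against 4.05 times in PTPRN2, 6.43 times in SHANK2 and 5.64 times in CDH4. All 4 genes met the size rule for a gain, at least 2 times the WT bases and at least 1 kb more, which 24.8% of all protein-coding genes and 67.9% of the 324 protein-coding genes of at least 500 kb also met. None met the rule for a loss, the opposite, which 0.884% of all genes and 4.01% of the long genes met. The rank by bases favors long genes. By the difference in percent of the body, SHANK2 stood first (69.1 points), CDH4 at rank 2 (58.6), PTPRN2 at rank 4 (51.4) and CAMTA1 at rank 6 (48.2) of the 324 long genes, whose median was 1.25 points.

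**Figure D1:**
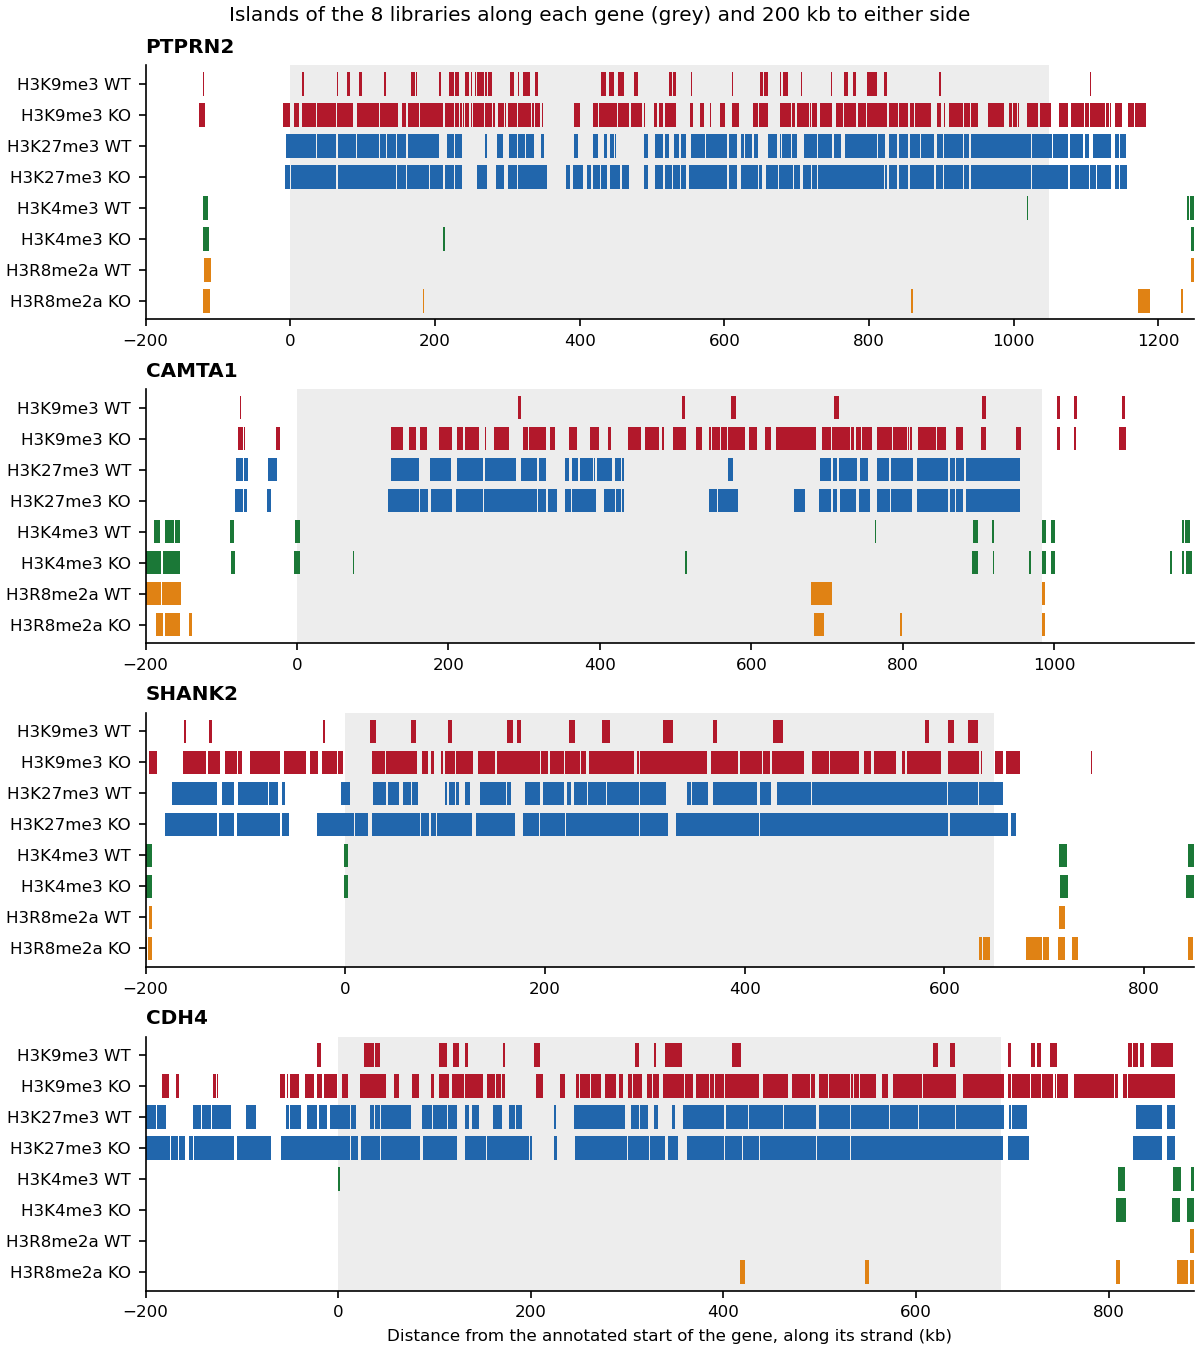
Islands of the 8 libraries along each gene, drawn to scale by distance from the annotated start in kb along the gene's strand, with the gene body in grey and 200 kb to either side. H3K9me3 islands rose in number from 40 to 75 in PTPRN2, 5 to 42 in CAMTA1, 15 to 30 in SHANK2 and 14 to 41 in CDH4, and the first 125 kb of CAMTA1 had none.

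The values ran on without a break outside the 4 genes. CDH4, the last inside, had 403 kb more H3K9me3 in KO, and CACNA1C, a calcium channel gene and the next in rank, had 368 kb more (15.2 and 384 kb). SORCS2, a sorting receptor gene, followed with 44.4 and 358 kb, RBFOX3, a neuronal splicing factor gene, with 9.20 and 287 kb, and DLGAP2, a postsynaptic scaffold gene, with 105 and 370 kb.

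How far these gains exceed the general rise depends on the scale. Outside the gene, H3K9me3 on the same chromosome was 4.19 times WT for PTPRN2, 3.51 for CAMTA1, 6.73 for SHANK2 and 6.62 for CDH4. With KO divided by the ratio of the total covered lengths, CAMTA1 was still 5.24 times WT and met the rule, while PTPRN2 (1.1 times), SHANK2 (1.74 times) and CDH4 (1.53 times) did not. With KO divided by the ratio on the rest of the chromosome, CAMTA1 stood at 5.52 times WT and PTPRN2, SHANK2 and CDH4 at 0.966, 0.956 and 0.852 times. A gene body can be covered only once, so the WT share caps the ratio at 5.93 in PTPRN2, 7.87 in SHANK2 and 7.91 in CDH4, and at 38.1 in CAMTA1. Scaled by total, PTPRN2 could therefore not have met the rule, and SHANK2 and CDH4 only with almost the whole body covered. Scaled by chromosome, PTPRN2, SHANK2 and CDH4 could not have met it at all. Nothing is read from their scaled calls beside that of CAMTA1.

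Nearly all WT islands were kept in KO, but much of the added H3K9me3 lay in islands apart from them. Of the 40 WT islands in PTPRN2, all 40 were touched by a KO island and 35 lay wholly inside KO islands. The counts were 4 touched and 4 inside of 5 in CAMTA1, 15 and 14 of 15 in SHANK2, and 14 and 12 of 14 in CDH4. Of the WT H3K9me3 bases, 98.9% were kept in PTPRN2, 98.3% in SHANK2, 98.4% in CDH4 and 83.7% in CAMTA1, where 4.20 kb was lost. Most KO islands held no WT island at all, 45 of 75 in PTPRN2, 38 of 42 in CAMTA1, 19 of 30 in SHANK2 and 30 of 41 in CDH4. Of the 541 kb of PTPRN2 with H3K9me3 in KO alone, 323 kb lay in such islands. The values were 429 of 478 kb in CAMTA1, 189 of 450 kb in SHANK2 and 321 of 405 kb in CDH4. The median KO island without a WT island was shorter than that with one in each gene, 5.80 against 13.4 kb in PTPRN2, 9.30 against 20.1 kb in CAMTA1, 7 against 31.0 kb in SHANK2 and 7.50 against 10.6 kb in CDH4. A longer island is more likely to overlap a WT island, so the split itself favors this order and nothing is read from it.

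The longest island of each gene was also longer in KO. In PTPRN2 it was 13.8 kb in WT (chr7:157569801-157583600) and 30.6 kb in KO (chr7:158170001-158200600, 180 to 211 kb from the start). In SHANK2 it was 10.2 kb in WT and 57.8 kb in KO (chr11:70610801-70668600), which touched 3 exons. In CDH4 it was 18.0 kb in WT and 41.8 kb in KO (chr20:60476401-60518200), which ran over 8 exons and past the 3' end of the gene. In CAMTA1 it was 6.80 kb in WT and 53.0 kb in KO (chr1:7477601-7530600, 632 to 685 kb from the start), a region with no WT island of H3K9me3 or H3K27me3.

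The middle 200 bases of the longest stretch of H3K9me3 present in KO alone are shown for each gene, along the gene's strand and with CG in capitals, to show the sequence that came under the mark. The stretches were 27 kb in PTPRN2, 53.0 kb in CAMTA1, 24.4 kb in SHANK2 and 39.3 kb in CDH4.
PTPRN2, intron 1 (chr7:158330601-158330800, minus): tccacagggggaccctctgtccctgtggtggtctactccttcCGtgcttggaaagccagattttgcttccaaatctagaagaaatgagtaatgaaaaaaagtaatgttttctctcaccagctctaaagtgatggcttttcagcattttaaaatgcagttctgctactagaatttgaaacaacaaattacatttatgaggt
CAMTA1, intron 5 (chr1:7504001-7504200, plus): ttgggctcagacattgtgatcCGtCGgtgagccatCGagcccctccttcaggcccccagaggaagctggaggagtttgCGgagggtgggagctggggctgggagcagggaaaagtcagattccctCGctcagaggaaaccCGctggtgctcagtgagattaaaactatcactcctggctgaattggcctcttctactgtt
SHANK2, intron 12 (chr11:70623001-70623200, minus): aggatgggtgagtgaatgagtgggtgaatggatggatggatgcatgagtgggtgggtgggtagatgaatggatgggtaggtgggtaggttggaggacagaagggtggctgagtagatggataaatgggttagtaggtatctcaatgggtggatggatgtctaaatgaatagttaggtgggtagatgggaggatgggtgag
CDH4, intron 9 (chr20:60496001-60496200, plus): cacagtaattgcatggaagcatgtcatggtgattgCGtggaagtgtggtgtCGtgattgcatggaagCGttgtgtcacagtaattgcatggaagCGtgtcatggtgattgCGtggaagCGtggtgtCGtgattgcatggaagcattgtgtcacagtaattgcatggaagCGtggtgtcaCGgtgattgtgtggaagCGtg
These intronic windows were unlike the starts shown above. They held 1, 6, 0 and 10 CG dinucleotides at a GC content of 39.5, 57.0, 49.5 and 49.5%. The CDH4 window is a tandem repeat, with 56.6% of its 12-mers present more than once in the window, and the SHANK2 window is built of runs of gtgggtgg and gatggatg-like units, although only 2.12% of its 12-mers recurred exactly. WT H3K27me3 covered the PTPRN2 and CDH4 windows, and KO H3K27me3 covered all 4.

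Along the body, cut into 10 equal bins from the start, KO coverage was broad but not even. In SHANK2 it lay between 57.5% in bin 1 and 93.6% in bin 3, and all 10 bins were higher in KO than in WT. In CDH4 bins 1 to 4 held 55.8, 55.8, 45.7 and 51.1% in KO and bins 6 to 10 held 90.1, 88.1, 86.9, 83.4 and 88.7%, while WT was highest in bin 2 (25.9%) and 0 in bin 8. In PTPRN2 all 10 bins were higher in KO, from 32.9% in bin 6 to 87.4% in bin 2, and bin 10 went from 0 to 63.0%. The low bins of PTPRN2 in KO, bin 4 (37.1%) and bin 6 (32.9%), lay on either side of bin 5 with 75.8%.

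CAMTA1 was divided in another way. Its bin 1 had no H3K9me3 and no H3K27me3 island in either genotype, and the H3K9me3 of KO began 125 kb from the start. From bin 2 to bin 9 KO held between 42.8% and 81.9%, and bin 10 held 13.2%. Bins 6 and 7 reached 69.8% and 73.9% H3K9me3 in KO, where WT H3K27me3 covered 6.30% and 0, and KO H3K27me3 37.6% and 14.9%. In the other bins with new H3K9me3 in CAMTA1, WT H3K27me3 ranged from 31.3% to 86.4%.

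**Figure D2:**
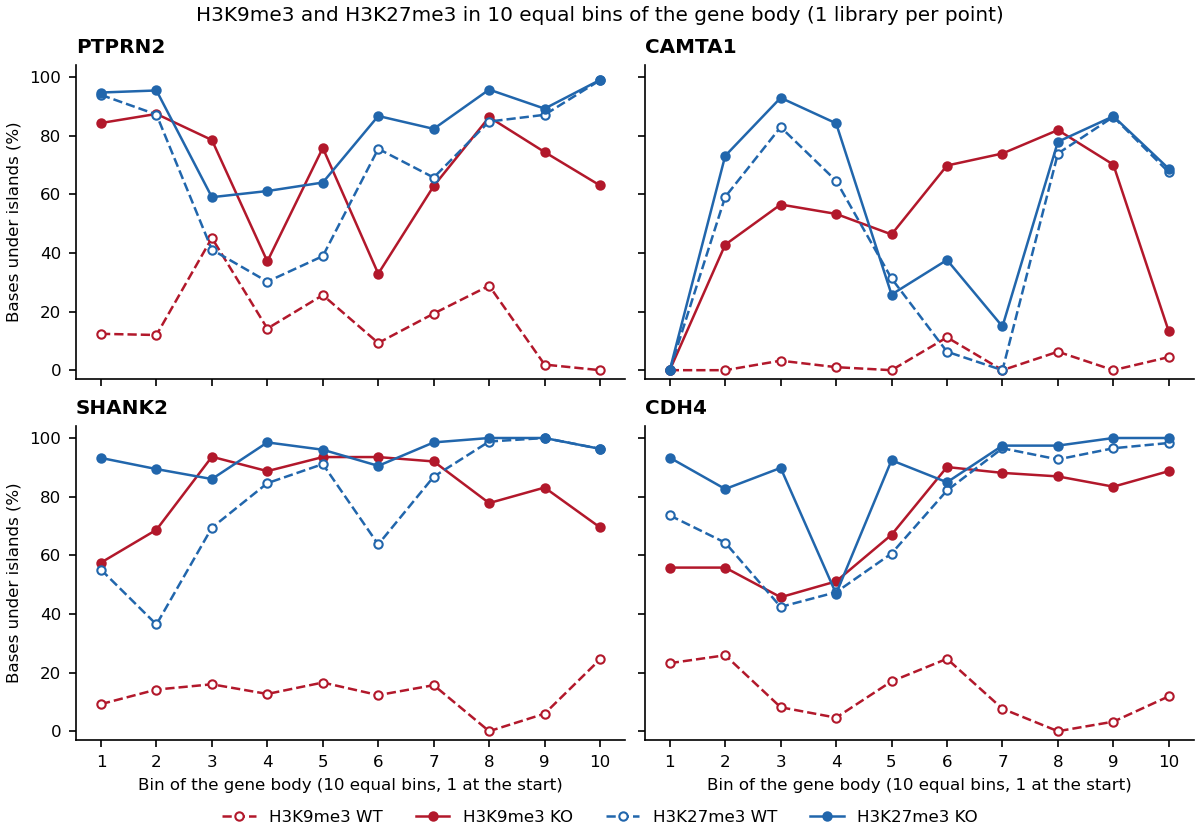
Percent of bases under islands (y axis) in 10 equal bins of the gene body, 1 at the start (x axis), for H3K9me3 (red) and H3K27me3 (blue), WT dashed with open points and KO solid with filled points, 1 library per point. H3K9me3 in KO was above WT in all 10 bins of PTPRN2, SHANK2 and CDH4 and in 9 of 10 of CAMTA1, whose bin 1 is at 0 in all 4 libraries.

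The gain covered introns and exons alike in PTPRN2 and CDH4 and missed long exonic stretches in SHANK2 and CAMTA1. In PTPRN2, H3K9me3 covered 13.1% of exon bases in WT and 83.8% in KO, and 16.9% and 68.2% of intron bases. In CDH4 the exon bases went from 5.35% to 84.4% and the intron bases from 12.7% to 71.1%, and the number of canonical exons touched went from 1 to 13 of 16. In SHANK2 exon bases went from 24.2% to 55.1% against 12.4% to 82.6% for introns, yet coding bases reached 88.8%, because the last 11.6 kb of the gene, with its long final exon, stayed free of H3K9me3. In CAMTA1 exon bases went from 0 to 22.1% and intron bases from 2.66% to 51.2%, with 9 of 23 canonical exons touched in KO, and coding bases reached 62.4%.

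The longest introns came under H3K9me3 to different degrees. Intron 2 of CDH4 alone is 489 kb, and its H3K9me3 coverage went from 15.7% to 65.7%. In PTPRN2, intron 12 (216 kb) went from 15.9% to 79.8% and intron 2 (173 kb) from 28.1% to 84.8%, while intron 11 (183 kb), between them along the gene, went only from 15.6% to 43.1%. In SHANK2, intron 15 (157 kb) went from 6.37% to 79.9% and intron 12 (99.7 kb) from 13.0% to 92.6%. In CAMTA1, intron 5 (218 kb) went from 5.04% to 71.0% with only 2.84% H3K27me3 in WT and 23.6% in KO, intron 6 (172 kb) from 3.59% to 81.0% with 77.8% H3K27me3 in WT, and intron 3 (266 kb) from 1.58% to 39.1%.

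H3K27me3, the Polycomb mark, already lay over much of all 4 genes in WT, a property that the ranking did not use. It covered 70.3% of PTPRN2 in WT and 82.7% in KO, 47.2% and 56.2% of CAMTA1, 78.2% and 94.8% of SHANK2, and 75.4% and 88.5% of CDH4. The median over the 324 long genes was 0.902% in WT and 1.97% in KO. None of the 4 met the rule for a gain of H3K27me3, which 5.44% of all protein-coding genes and 25.6% of the long genes met. PTPRN2, SHANK2 and CDH4 could not have met it, because their WT share leaves no room for 2 times the WT bases. None met the rule for a loss, which 2.75% of all genes and 7.10% of the long genes met. The KO to WT ratios of 1.18, 1.19, 1.21 and 1.17 are in the order PTPRN2, CAMTA1, SHANK2, CDH4, and the rest of each chromosome had 1.47, 1.31, 1.40 and 1.38. The WT share caps the ratio at 1.42 in PTPRN2, 1.28 in SHANK2 and 1.33 in CDH4, below the chromosome's ratio whatever KO held, and at 2.12 in CAMTA1, so nothing is read from this for the first 3. H3K27me3 islands became fewer and longer, from 53 to 48 in PTPRN2, 27 to 26 in CAMTA1, 27 to 14 in SHANK2 and 29 to 19 in CDH4. In CAMTA1 the change was slight, with a median length of 15.0 kb (WT) and 15.6 kb (KO). The whole libraries changed in the same direction, from 23394 to 22633 islands and from a mean of 10.9 to 15.1 kb. The longest H3K27me3 island in the 4 genes was 188 kb, in KO SHANK2 (chr11:70360401-70548000), where WT had an island of 135 kb.

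New H3K9me3 in KO fell on top of this H3K27me3 and did not replace it. Of the H3K9me3 bases in KO that had none in WT, 84.4% of 541 kb in PTPRN2, 85.7% of 450 kb in SHANK2 and 85.3% of 405 kb in CDH4 lay on WT H3K27me3, and 57.0% of 478 kb in CAMTA1. Of the bases free of H3K9me3 in WT, 73.2, 79.5, 77.4 and 47.3%, in that order, carried H3K27me3. Read the other way, 71.5% of the H3K27me3 bases of PTPRN2 became covered by H3K9me3 against 36.1% of the other bases, and the shares were 85.5% against 55.5% in SHANK2, 74.2% against 43.7% in CDH4 and 60.1% against 40.7% in CAMTA1. Between 97.4% and 99.6% of the new H3K9me3 that lay on WT H3K27me3 still had H3K27me3 in KO. This was close to the share of all WT H3K27me3 bases kept in KO, 99.2% in PTPRN2, 99.3% in SHANK2, 98.4% in CDH4 and 95.7% in CAMTA1.

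As a result, the body under both marks went from 9.48% to 61.0% in PTPRN2, from 1.12% to 35.2% in CAMTA1, from 8.77% to 78.6% in SHANK2 and from 7.84% to 66.3% in CDH4. Multiplying the shares of both marks in KO gives 56.4, 28.5, 77.6 and 63.0%, so in bodies this fully covered most of the joint coverage is what the shares alone would give. H3K9me3 without H3K27me3 changed little in PTPRN2 (7.38% to 7.28%), SHANK2 (3.94% to 3.20%) and CDH4 (4.79% to 4.94%) and went from 1.5% to 15.6% in CAMTA1. The body with neither mark went from 22.3% to 10% in PTPRN2, from 51.3% to 28.3% in CAMTA1, from 17.9% to 1.97% in SHANK2 and from 19.8% to 6.60% in CDH4. The marks were read in separate libraries, so shared positions do not show both marks on the same nucleosome or in the same cell.

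**Figure D3:**
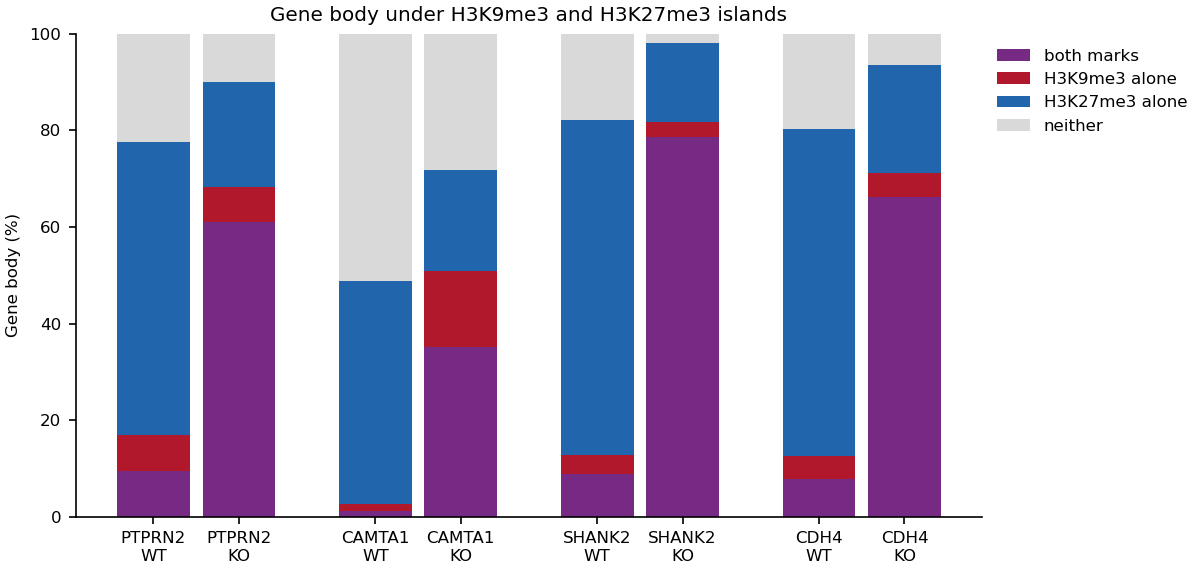
Percent of each gene body (y axis, from 0) under islands of both H3K9me3 and H3K27me3, of H3K9me3 alone, of H3K27me3 alone and of neither, as stacked bars for WT and KO, 1 library of each mark per bar. The share under both marks went from 1.12 to 9.48% in WT to 35.2 to 78.6% in KO, and the share with H3K27me3 alone went from 46.1 to 69.4% in WT to 16.2 to 22.2% in KO.

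Long genes with as much H3K27me3 did not all gain as much H3K9me3. Of the other long genes, 5 had H3K27me3 on at least 70% of the body in WT, and their H3K9me3 in KO ranged from 2.54% to 65.0% with a median of 20.2%. For the 16 other long genes with at least 40%, which include these 5, the range was 0.324% to 65.0% and the median 13.2%. AGAP1, chosen after its values were seen, went from 1.1% to 38.6% H3K9me3 with no H3K27me3 in WT. In 168 other long genes with at least 10 kb of new H3K9me3, the median share of it on WT H3K27me3 was 0. In the 56 of them with H3K27me3 on at least 5% of the body the median was 17.3%, with quartiles of 0 and 66.9%, and H3K27me3 bases became covered more often than other bases in 30 of 56.

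**Figure D4:**
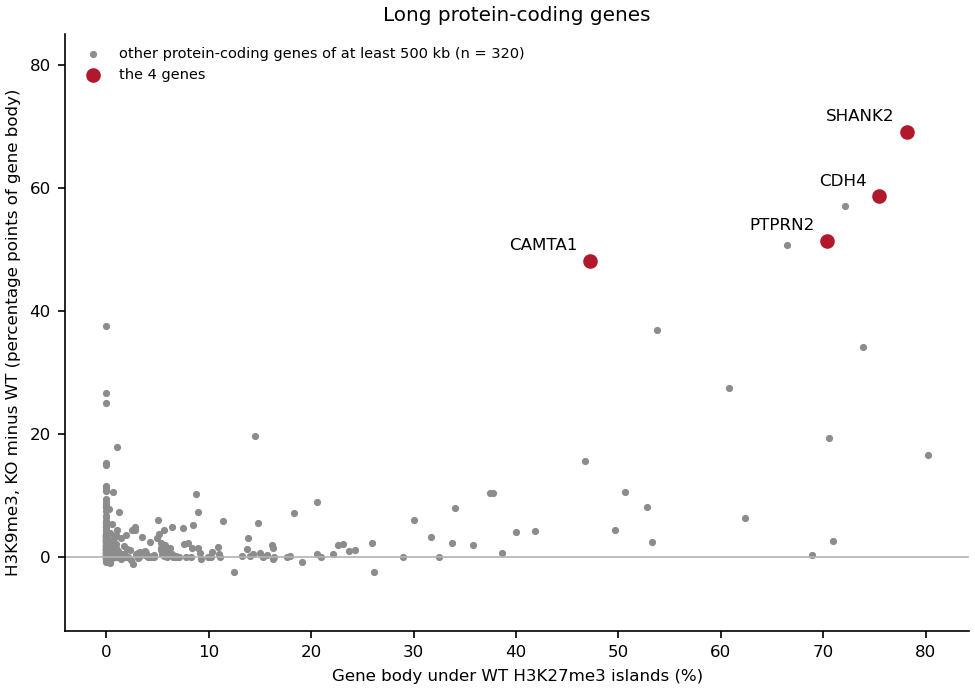
Difference in H3K9me3 between KO and WT, in percentage points of the gene body (y axis), against the percent of the body under WT H3K27me3 (x axis) for the 324 protein-coding genes of at least 500 kb, 1 point per gene. The 4 genes (red) lie at 47.2 to 78.2% H3K27me3 and 48.2 to 69.1 points, and other genes with at least 70% H3K27me3 reach from a few points to above PTPRN2.

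The 4 genes were also GC-rich for their length, a measure chosen after the data were seen, as were the repeats described next. Their GC content was 51.4% (PTPRN2), 48.0% (CAMTA1), 51.6% (SHANK2) and 51.8% (CDH4), ranks 5, 7, 4 and 3 among the 324 long genes, where the other long genes had a median of 38.1% and quartiles of 36.3% and 40.7%. They held 24.4, 15.3, 18.9 and 21.1 CG dinucleotides per kb against a median of 6.85. The 3 other long genes with a GC content at least that of CAMTA1 had H3K9me3 over 11.2% to 65.0% of the body in KO. Within each gene, windows of 200 bases that had H3K9me3 in KO alone had a mean GC content of 53.4% in PTPRN2, 51.8% in CAMTA1, 52.9% in SHANK2 and 53.4% in CDH4, close to that of windows with H3K9me3 in both genotypes (53.6, 50.8, 52.6 and 53.9%). Windows without H3K9me3 were lower, at 47.0, 44.2, 46.3 and 47.6%. The difference was present on WT H3K27me3 as well, where windows that gained H3K9me3 had 53.7, 52.5, 53.4 and 54.1% and those that did not had 48.2, 47.3, 47.1 and 49.5%. The H3K9me3-free bin 1 of CAMTA1 had the lowest GC content of its bins, 41.4%, and in PTPRN2 bin 4, with 37.1% H3K9me3 in KO, had 46.2%, the lowest there. Bin 6 of PTPRN2, with the least H3K9me3 in KO (32.9%), had 50.4%, near the mean of the gene. The part of base composition in read recovery was not tested.

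Tandem repeats were compared among PTPRN2, CDH4, SHANK2 and CAMTA1 alone, and PTPRN2 had the highest level. Windows in which at least 20% of the 12-mers recurred made up 14.9% of PTPRN2, 5.75% of CDH4, 2.56% of SHANK2 and 2.07% of CAMTA1. In PTPRN2 they were 29.2% of the windows with neither H3K9me3 in any genotype nor H3K27me3 in WT, and 30.6% of those with new H3K9me3 and no WT H3K27me3, against 8.41% and 10.5% of windows on WT H3K27me3 with and without new H3K9me3. How reads were placed in such repeats was not tested.

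**Figure D5:**
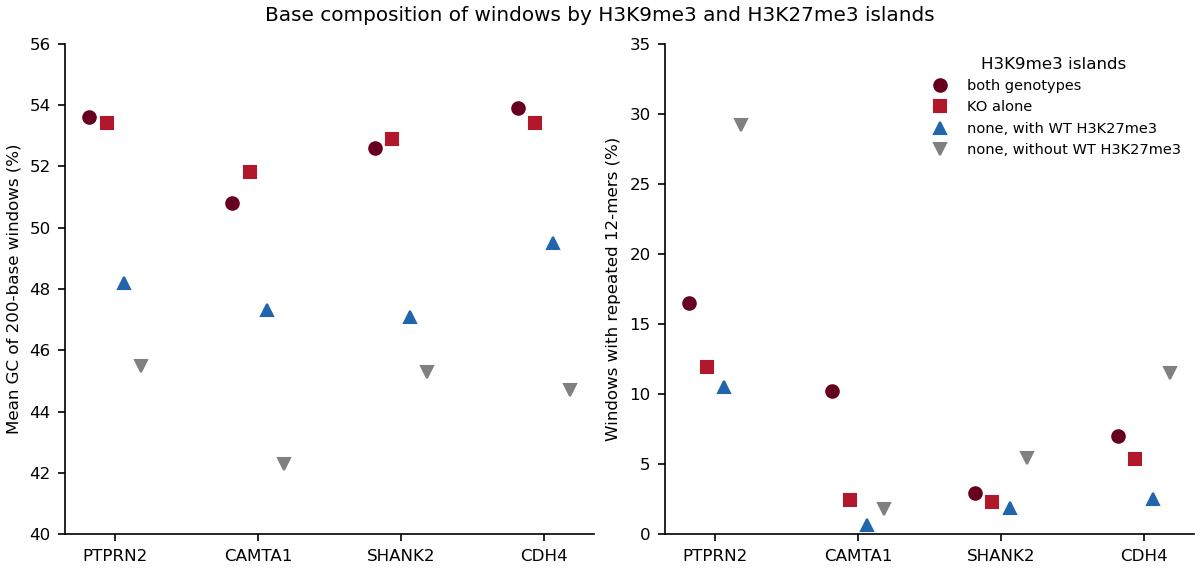
Mean GC content (left, y axis in percent, from 40 to 56) and percent of windows in which at least 20% of 12-mers recur (right) for 200-base windows of each gene, by H3K9me3 in both genotypes, in KO alone, or in neither with and without WT H3K27me3. In all 4 genes, windows with H3K9me3 (50.8 to 53.9% GC) lie above those without it (42.3 to 49.5%).

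The starts of the genes behaved differently from the bodies. CAMTA1 kept a broad H3K4me3 island over its start, 7.20 kb in WT (chr1:6842401-6849600) against 7.80 kb in KO (chr1:6841601-6849400), with no H3K9me3 or H3K27me3 within 2 kb. SHANK2 had H3K4me3 and H3K27me3 together at its start, the H3K4me3 island being 4.40 kb in WT (chr11:70961001-70965400) against 3.8 kb in KO (chr11:70961401-70965200), with H3K9me3 over 0.0230 kb of the 4.00 kb window in KO. CDH4 had an H3K4me3 island of 2.80 kb at its start in WT (chr20:59826801-59829600), inside H3K27me3, and none in KO, where H3K9me3 covered 1.08 kb of the window that was free of it in WT. PTPRN2 had no H3K4me3 at its start in either genotype, and H3K27me3 covered 4.11 kb of the window in WT and 3.11 kb in KO, where H3K9me3 covered 1.51 kb.

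Over the whole bodies, starts included, H3K4me3 was sparse. The WT and KO bodies held 1.80 and 3 kb in PTPRN2, 16.7 and 20.1 kb in CAMTA1, and 2.62 and 2.22 kb in SHANK2. In SHANK2 this was the start island alone. CDH4 went from 2.28 kb to 0, which was the start island described above, and was the 1 gene of the 4 that met the rule for a loss, which 2.22% of all protein-coding genes met, while 0 of the 4 met the rule for a gain, which 4.56% met. The single H3K4me3 island of PTPRN2 lay 1018 kb from the start in WT and 212 kb from it in KO, so no position was shared. In CAMTA1 an internal island at 892 kb measured 6.80 kb (WT) and 8.20 kb (KO) and lay within H3K27me3 in both.

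Alternative starts inside the bodies gained H3K9me3 in PTPRN2, CAMTA1 and SHANK2 and not in CDH4. Of the start positions annotated for protein-coding transcripts, merged within 500 bp, H3K9me3 lay within 2 kb of 0 of 2 in WT and 2 of 2 in KO for PTPRN2, 0 and 2 of 7 for CAMTA1, 1 and 7 of 7 for SHANK2, and 1 and 2 of 3 for CDH4. These counts include the start of the gene itself, which in SHANK2 had only 0.0230 kb in KO. In CDH4 the added start was that of the gene. Its start at 348 kb had 4.00 kb in both genotypes, and that at 318 kb had none. In SHANK2 the position 455 kb from the start, shared by 3 transcript starts, went from 0 to 4.43 kb, all of its window, on H3K27me3 that covered it in both genotypes. In CAMTA1 the starts at 879 kb went from 0 to between 2.52 and 3.06 kb, and the one at 919 kb, where H3K4me3 took up 3.40 kb (WT) and 1.80 kb (KO), had none.

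H3R8me2a was absent from 3 of the genes in WT. PTPRN2 went from 0 to 5.40 kb in 2 islands, SHANK2 from 0 to 10.6 kb in 2 islands and CDH4 from 0 to 8.80 kb in 2 islands, and all 3 met the rule for a gain, which 19.5% of all protein-coding genes and 11.1% of the long genes met. No fold is given, since WT is listed at 0. Both islands of PTPRN2 and of CDH4 overlapped H3K9me3 and H3K27me3 islands of KO. In SHANK2 the longer island, 7.6 kb (chr11:70317601-70325200), overlapped part of the last exon, inside the H3K9me3-free 3' end. CAMTA1 went the other way, from a single island of 27.8 kb (chr1:7524801-7552600) to 13.8 kb at the same place and 17.0 kb over the whole body. The change did not meet the rule for a loss, which 7.95% of all genes and 11.4% of the long genes met. This island lay at the border where the WT H3K27me3 of the 3' part of CAMTA1 begins.

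The flanks of the 4 genes differed. In the 200 kb before the start, H3K9me3 went from 0.900% to 9% at PTPRN2 and from 1.00% to 7.10% at CAMTA1, but from 3.20% to 68.5% at SHANK2 and from 1.70% to 29.3% at CDH4. In the 200 kb after the 3' end it went from 0.800% to 48.3% at PTPRN2, 5.80% to 8.20% at CAMTA1, 0 to 12.2% at SHANK2 and 26.2% to 79.3% at CDH4. H3K27me3 in WT covered 44.6% of the 200 kb after PTPRN2 and 52.1% of that before SHANK2, but 28.0% of that after CDH4 and 3.24% of that before PTPRN2.

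The neighboring genes differed from one another. NCAPG2, a condensin II subunit gene just before PTPRN2, CTTN, the cortactin gene after SHANK2, and VAMP3, a vesicle fusion gene after CAMTA1, had no H3K9me3 in either genotype. TAF4, a TFIID subunit gene that follows CDH4, went from 13.8 kb to 97.9 kb of H3K9me3 (12.3% and 87.1% of the gene) with H3K27me3 at 12.2% and 14.1%. DHCR7, a cholesterol synthesis gene before SHANK2, went from 0 to 32.4%, and PER3, a clock gene after CAMTA1, was at 10.5% and 12.8%. Inside the 4 bodies, 33 annotated genes, 25 of them lncRNAs and 3 miRNAs, lay in all. H3K9me3 covered at least 50% of 1 of them in WT and 23 in KO, 7 of 10 in PTPRN2, 5 of 9 in CAMTA1, 8 of 9 in SHANK2 and 3 of 5 in CDH4. In KO, MIR595 in PTPRN2 and MIR3664 in SHANK2 were fully covered, and MIR153-2 in PTPRN2 was not covered, though H3K27me3 covered all 3 in both genotypes. Because these genes overlap their host, the islands cannot be assigned to either.

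Relatives of the 4 genes are given by counts, to be read beside the 24.8% of all protein-coding genes with a gain of H3K9me3 and the 0.884% with a loss. Among genes of at least 500 kb the share with a gain was 67.9%. The families hold several genes of that length and were not matched for it. Of 19 other receptor-type phosphatase genes 8 met the rule for a gain and 1, PTPRE, for a loss (3.40 kb to 0), and the largest gain was in PTPRM, 22.2 to 69.5 kb with no H3K27me3. PTPRN, the closest relative of PTPRN2, had no H3K9me3 in either genotype and 10.8 and 14.6 kb of H3K27me3. CAMTA2 had no H3K9me3 or H3K27me3 and 7.28 and 7.08 kb of H3K4me3. Of 13 other postsynaptic scaffold genes 9 met the rule for a gain and 0 for a loss, with a median difference of 8.80 kb against 0 kb over all genes. SHANK1 went from 0 to 20.6 kb and SHANK3 from 4.40 to 25.2 kb, both with H3K27me3 over most of the gene, while DLG3 had no H3K9me3. Of 18 other cadherins 6 met the rule for a gain and 0 for a loss, with a median difference of 0 kb. CDH13, which had the largest gain of these, went from 7 to 43.4 kb, CDH2 (N-cadherin) had no H3K9me3 or H3K27me3, and CDH9 was at 12.9 and 11.5 kb.

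Genes most alike were sought by the percent of the body in all 8 libraries. Among 826 protein-coding genes of at least 300 kb, the gene nearest to PTPRN2 was CDH4, with a mean absolute difference of 2.41 points over the 8 libraries, and CDH4 was nearest to SHANK2 as well (2.56 points), with PTPRN2 at 4.89 points from SHANK2. The nearest to CDH4 was SORCS2 (1.92 points), which had 8.07% and 65.0% H3K9me3 and 72.1% and 89.0% H3K27me3. The nearest to CAMTA1 were SH3RF3 (4.53 points), CACNA1C (4.81) and XKR6 (4.84), with 37.5%, 52.7% and 26.7% H3K9me3 in KO and 53.8%, 66.5% and 51.2% H3K27me3 in WT. DIP2C, at 4.37 points from PTPRN2, went from 6.16% to 60.8% H3K9me3. The likeness uses H3K9me3 and so repeats in part what chose the genes.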

How the data were processed

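ChIP-seq islands of 8 libraries (4 marks, WT and KO) were used. Reads of 75 nt were mapped by the authors to hg19 (BWA), extended to 200 bp and tags were down-sampled to the smallest sample of a comparison group, and the submitters' processing notes name SICER 1.1. The deposited values are the start and end of each island, and the 63759 merged regions deposited beside the 141489 islands were not used. Island calling joins nearby windows and has a threshold, so longer coverage cannot be told from deeper or more permissive calling.

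Islands were laid over GENCODE 44 genes lifted to GRCh37 (1 entry per symbol) with Python 3.11.15, numpy 2.4.6 and pandas 2.3.3, an overlap being 1 base, and all gene totals equalled those of bedtools 2.31.1. The lift marks SHANK2 and CDH4 as partly remapped. The interval code was tested on simulated data. Figures were drawn with matplotlib 3.10.9. The genes, lists and rules were chosen with earlier results of these data known. The named genes were the 4, the next 4 in rank, the 3 most alike of at least 300 kb, neighboring and overlapping genes, close relatives, and the extremes of each family list. Alternatives changed the region, the smallest island, merging, scaling, transcripts, flanks and the factor. RNA-seq was not analysed here. Some sequences are not reported here.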

Additional observations from a re-analysis of the deposited data

How the results depend on the processing

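No paired analysis was possible because each mark had 1 library per genotype, and for the same reason no replicate could be left out. Coverage outside what islands report, read depth and signal over background cannot be had from starts and ends, so differences in calling and in chromatin cannot be told apart. Of 167 alternative values of 68 results, 122 stayed within 1.5 times of the reported value (or, for differences in covered bases, within 1 kb of it) and 45 did not. The sign changed in 11, all under scaling, 3 of them for H3K9me3 and 8 for H3K27me3. Adding 5 kb upstream, islands of at least 1 kb and a factor of 1.5 for the calls of the 4 genes moved none of the covered lengths or calls beyond that. The canonical transcript spans the whole annotated gene in all 4. Its range and its bins were thus the same intervals as the main ones, and their place among the 122 shows nothing.

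Scaling moved most. Divided by the ratio of total covered length, the KO minus WT difference of H3K9me3 was 16.9 kb in PTPRN2, 110 kb in CAMTA1, 61.3 kb in SHANK2 and 45.8 kb in CDH4, and divided by the ratio on the rest of the chromosome -5.93, 117, -3.67 and -12.9 kb. For H3K27me3 these were -87.2, -50.2, -46.2 and -62.8 kb by total and -148, -42.1, -67.6 and -78.6 kb by chromosome. Given the WT share, even full coverage in KO would have given a negative value in SHANK2 and CDH4 by either scaling and in PTPRN2 by chromosome. For H3R8me2a they were 3.35, -17.3, 6.58 and 5.46 kb by total and 1.89 kb in PTPRN2, 3.55 kb in SHANK2 and 3.68 kb in CDH4 by chromosome, and for H3K4me3 in CAMTA1 0.752 and 0.272 kb. Scaled by total, 2407 protein-coding genes met the rule for a gain of H3K9me3 and 1539 for a loss, and 1 of the 4 genes for a gain, in place of 4984, 178 and 4. Given the WT share, PTPRN2 could not have met this scaled rule, and SHANK2 and CDH4 only with almost the whole body covered. Without scaling, 67.9% of genes of at least 500 kb met the rule for a gain.

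Islands of H3K27me3 in KO within 1 kb merged to 8 in SHANK2 and 12 in CDH4. Of coding bases, H3K9me3 covered 20.6% in WT PTPRN2, 62.4% in KO CAMTA1, and 51.9% in WT and 88.8% in KO SHANK2. Of canonical exon bases it covered 41.7% in KO CAMTA1 and 2.59% in WT CDH4. In flanks of 100 kb, KO H3K9me3 was 72.8% after PTPRN2, 14.2% before CAMTA1, 24.4% after SHANK2 and 44% before CDH4, and in flanks of 500 kb 35.6% before PTPRN2, 39.5% before SHANK2, and 16.5% before and 44.4% after CDH4.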
